A study of Homo sapiens with 4 samples.

Results

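The metallothioneins and the zinc transporters were followed in 2 established human osteosarcoma cell lines, U2-OS and HOS, with and without OGE, a treatment whose name the labels do not spell out. Members were taken by gene symbol: MT1 followed by a letter, MT2A, MT3, the transcription factor MTF1, and every SLC30A or SLC39A gene. This gave 34 of 18417 measured genes, namely 9 metallothioneins, MTF1, 10 SLC30A genes and 14 SLC39A genes. Of these, 28 were at the floor, meaning that at least 1 array gave a value at or above the median of that array over all probe sets. The 4 groups were U2-OS with 600 μg/mL OGE, U2-OS with 0 μg/mL, HOS with 600 μg/mL and HOS with 0 μg/mL, each for 24 h and each represented by 1 array. All cultures were grown in the same serum-containing medium, and no allele or transgene is named in the labels. The series asks how OGE acts on gene expression in these lines.

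Metallothioneins are small cysteine-rich proteins that bind zinc and copper and take up toxic metals such as cadmium. MTF1 senses a rise in free zinc, binds metal response elements in promoters and switches on the metallothionein genes and SLC30A1. The SLC30A family, also called ZnT, moves zinc out of the cytosol, either out of the cell or into organelles. The SLC39A family, also called ZIP, brings zinc into the cytosol from outside or from organelles.

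The stretches before the start sites of MT2A, MT1X and SLC30A1 are shown because these genes are known targets of MTF1 and carry the main results below. The RefSeq promoter table of GRCh38.p14 held 26 of the 34 members, with 35 promoters in all. MT1E, MT1F, MT1G, MT1M, MT3, SLC30A8, SLC39A4 and SLC39A14 had no entry. Each sequence below covers the 250 bases before the gene start, 5′ to 3′ on the strand of the gene. MT2A lies at chr16:56608334-56608583 on the plus strand, MT1X at chr16:56682220-56682469 on the plus strand and SLC30A1 at chr1:211579162-211579411 on the minus strand. Capitals mark each match to the core of the metal response element, TGCACNC or TGCGCNC, searched on both strands.
MT2A: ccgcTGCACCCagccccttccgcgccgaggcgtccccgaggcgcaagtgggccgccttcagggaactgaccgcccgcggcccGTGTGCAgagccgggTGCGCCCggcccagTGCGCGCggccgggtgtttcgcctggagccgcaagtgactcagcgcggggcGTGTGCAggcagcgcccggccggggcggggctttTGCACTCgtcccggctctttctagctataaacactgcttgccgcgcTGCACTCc
MT1X: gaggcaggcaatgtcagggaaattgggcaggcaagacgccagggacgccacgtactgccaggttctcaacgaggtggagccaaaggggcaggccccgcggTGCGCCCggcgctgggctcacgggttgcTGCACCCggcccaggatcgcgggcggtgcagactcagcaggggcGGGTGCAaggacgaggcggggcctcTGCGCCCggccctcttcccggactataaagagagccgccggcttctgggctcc
SLC30A1: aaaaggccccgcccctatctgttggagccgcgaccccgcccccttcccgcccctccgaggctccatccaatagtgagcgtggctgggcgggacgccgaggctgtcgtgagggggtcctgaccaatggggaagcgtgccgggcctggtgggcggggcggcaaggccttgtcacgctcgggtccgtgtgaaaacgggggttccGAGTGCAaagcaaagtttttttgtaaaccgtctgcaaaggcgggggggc
MT2A held 7 cores, MT1X held 4 and SLC30A1 held 1, and no core overlapped another. Among the other metallothioneins with an entry, MT1B held 3 and MT1H held 8. At least 1 core was present in 4 of 4 metallothionein promoters, 6 of 11 SLC30A promoters and 5 of 19 SLC39A promoters, against 24.8% of all 35116 promoters in the table. At least 3 cores were present in 4 of 4 metallothionein promoters and in 1.05% of all promoters. MTF1 itself had none in this window. The core of the antioxidant response element, TGACNNNGC, through which NRF2 acts, was present in 3 of 4 metallothionein promoters (MT2A, MT1B and MT1X). It was also present in 5 of 11 SLC30A promoters, SLC30A1 among them, and 4 of 19 SLC39A promoters, against 10.9% of all promoters. The MTF1 promoter held none. A match of these letters is a description and does not show that a factor was bound.

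**Figure D1:**
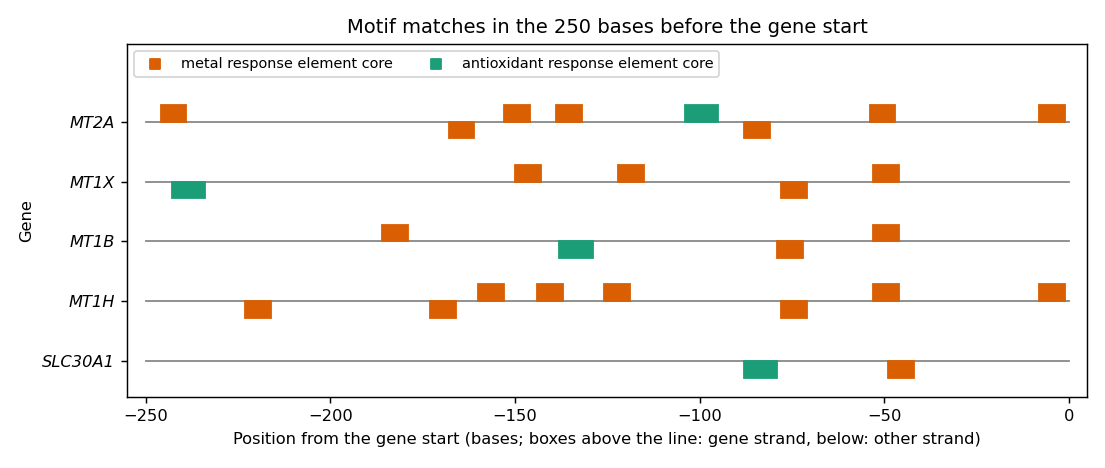
Positions of motif matches in the 250 bases before the start of 5 genes, in bases from the gene start, with boxes above a line for the gene strand and below it for the other strand. MT2A and MT1H hold 7 and 8 metal response element cores spread over the window, MT1X and MT1B hold 4 and 3, and SLC30A1 holds 1 near the start.

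Values are deposited on a log2 scale, with array medians of 3.58 to 3.62. The OGE and control arrays correlated at 0.968 in U2-OS and 0.98 in HOS over all probe sets. Precision is limited by the number of arrays, and a difference within one line rests on a pair of single arrays and has no test. Calls by size required a log2 difference of at least 1 (2-fold) and, in the higher array, a value no lower than the median of that array. Of 8 measured osteoblast lineage markers 6 were at the floor, and IBSP and SPP1 were under it on all 4 arrays. By size with OGE, COL1A1 (-1.75) and SPARC (-1.40) were lower in U2-OS and COL1A2 (-1.25) was lower in HOS. The collagen gene COL1A2 was at 4.38 with OGE and 4.46 without it in U2-OS, against 7.53 and 8.78 in HOS. RUNX2, the lineage's transcription factor, had changes of -0.59 in U2-OS and -0.60 in HOS. The part of these marker differences in the results was not tested. Of the immune and endothelial markers measured, 0 of 3 and 0 of 4 were at the floor on any array. Among 5 epithelial markers, KRT14 was above the array median on all 4 arrays. KRT19 was above it on all but the U2-OS array with OGE, and EPCAM only in HOS.

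**Figure D2:**
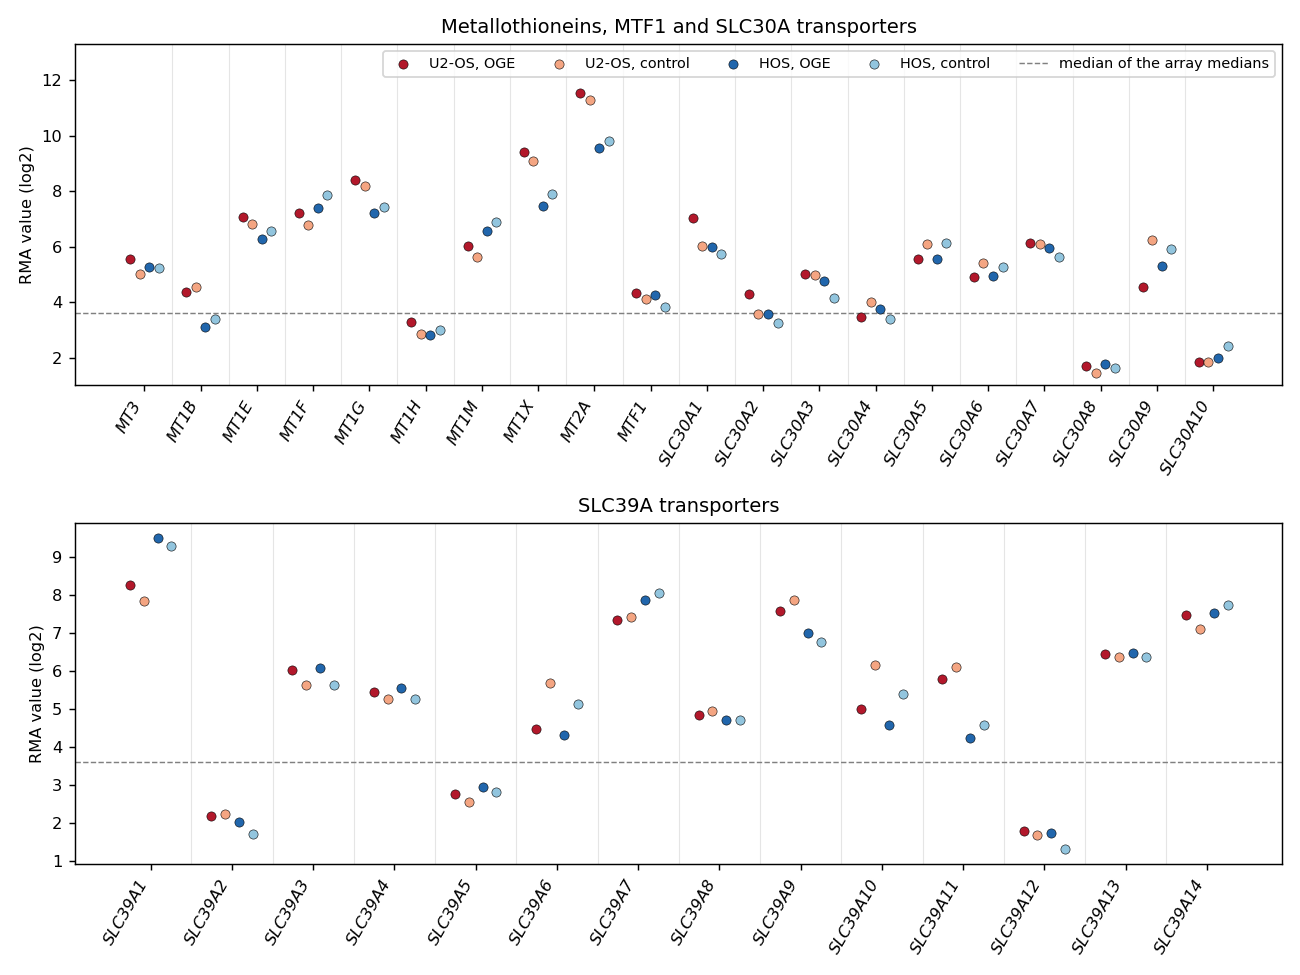
RMA values (log2) of the 34 genes on the 4 arrays, with U2-OS with OGE, U2-OS control, HOS with OGE and HOS control from left to right within each gene. The dashed line is the median of the 4 array medians, and 6 genes lie under it on every array.

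With OGE, the metallothioneins had slightly higher values in U2-OS and slightly lower values in HOS, and none was called by size in either line. In bulk RNA of this kind, fewer cells with a transcript and less of it per cell cannot be told apart. MT1X, one of the widely expressed forms, was at 9.42 with OGE and 9.07 without it in U2-OS, and at 7.48 with OGE and 7.89 without it in HOS. Its OGE change was 0.35 in U2-OS and -0.41 in HOS. The direction thus differed between the lines, and both sizes were well under 1. MT2A, the main metallothionein of most human tissues, was at 11.54 with OGE and 11.30 without it in U2-OS, and at 9.56 with OGE and 9.82 without it in HOS. The changes were 0.24 and -0.26 with the probe set of highest mean. The other 2 MT2A probe sets gave 0.35 and 0.33 in U2-OS and -0.80 and -0.37 in HOS, so all 3 had the same pair of signs while the size in HOS varied.

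MT1F was at 7.22 with OGE and 6.78 without it in U2-OS, and at 7.40 with OGE and 7.85 without it in HOS. MT1M was at 6.02 with OGE and 5.63 without it in U2-OS, and at 6.56 with OGE and 6.88 without it in HOS. These genes had changes of 0.44 and 0.39 in U2-OS and of -0.45 and -0.32 in HOS. MT1E was at 7.06 with OGE and 6.81 without it in U2-OS, and at 6.29 with OGE and 6.55 without it in HOS. MT1G was at 8.39 with OGE and 8.17 without it in U2-OS, and at 7.20 with OGE and 7.42 without it in HOS. Both followed the same order of arrays as MT1X, with U2-OS with OGE highest and HOS with OGE lowest.

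MT1B and MT3 did not share this pattern. MT1B was at 4.38 with OGE and 4.55 without it in U2-OS, and at 3.11 with OGE and 3.40 without it in HOS, where both values were under the array median. MT3, known as the metallothionein of the brain, was at 5.57 with OGE and 5.01 without it in U2-OS, and at 5.28 with OGE and 5.22 without it in HOS. Its change of 0.56 in U2-OS was the highest of the 9 metallothioneins in that line. MT1H stayed under the floor on all arrays, with values from 2.83 to 3.27.

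Over the 8 metallothioneins at the floor, 7 were higher and 1 lower with OGE in U2-OS, and 1 was higher and 7 lower in HOS. The median change was 0.30 in U2-OS and -0.275 in HOS, against -0.01 in U2-OS and 0.02 in HOS over the 12029 genes at the floor. The metallothionein genes are closely related copies, and all 9 lie on chromosome 16. Their probe sets may share signal from related transcripts, and the counts over them are not counts of independent genes. How far the probe sets cross-hybridise was not tested.

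MTF1 was at 4.32 with OGE and 4.10 without it in U2-OS, and at 4.26 with OGE and 3.82 without it in HOS. Its changes of 0.22 and 0.44 were under the size threshold in both lines.

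Among the zinc exporters, SLC30A1 was called higher in U2-OS and SLC30A9 was called lower there. SLC30A1, the exporter of the plasma membrane, was at 7.03 with OGE and 6.01 without it in U2-OS, and at 5.98 with OGE and 5.72 without it in HOS. The U2-OS array with OGE thus stood above the other 3, which lay within 0.29 of each other. The change was 1.02 in U2-OS, or 2.03-fold, just past the threshold, and 0.26 in HOS, or 1.20-fold. SLC30A9, which is needed for zinc export from mitochondria, was at 4.53 with OGE and 6.23 without it in U2-OS, and at 5.31 with OGE and 5.93 without it in HOS. The changes were -1.70 and -0.62, and in each line the array with OGE was the lower one.

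SLC30A5 and SLC30A6 form a complex that loads zinc into the early secretory pathway. SLC30A5 was at 5.54 with OGE and 6.09 without it in U2-OS, and at 5.54 with OGE and 6.13 without it in HOS. SLC30A6 was at 4.92 with OGE and 5.41 without it in U2-OS, and at 4.94 with OGE and 5.26 without it in HOS. Both partners thus had lower values with OGE in each line, by less than the threshold. SLC30A7, a transporter of the Golgi that works in the same route, had changes of 0.03 in U2-OS and 0.30 in HOS.

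SLC30A2, known for zinc secretion in the mammary gland, was at 4.31 with OGE and 3.56 without it in U2-OS, and at 3.57 with OGE and 3.24 without it in HOS, so only the U2-OS array with OGE was at or above its array median. SLC30A3, known for loading synaptic vesicles with zinc, was at 5.02 with OGE and 4.97 without it in U2-OS, and at 4.76 with OGE and 4.16 without it in HOS. SLC30A4, a transporter of endosomal vesicles, was at 3.47 with OGE and 3.99 without it in U2-OS, and at 3.75 with OGE and 3.38 without it in HOS. Its changes of -0.52 and 0.37 had opposite signs at values close to the array medians, and RMA draws such low values together.

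Of the SLC39A importers, SLC39A6 and SLC39A10 were called lower in U2-OS and had changes of the same sign in HOS. These related proteins pair with each other at the plasma membrane, and in mouse MTF1 is known to repress SLC39A10 when zinc is plentiful. In the 250 bases before the start, the SLC39A10 promoters held no metal response element core and the SLC39A6 promoter held 1. Whether MTF1 acted on these genes here was not tested. SLC39A6 was at 4.47 with OGE and 5.68 without it in U2-OS, and at 4.31 with OGE and 5.13 without it in HOS. SLC39A10 was at 5.00 with OGE and 6.16 without it in U2-OS, and at 4.59 with OGE and 5.39 without it in HOS. For each gene both arrays with OGE lay below both arrays without it. The changes in U2-OS were -1.21 and -1.16, and those in HOS -0.82 and -0.80.

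Other importers had higher values with OGE in both lines. SLC39A1, a widely expressed importer of the plasma membrane, was at 8.28 with OGE and 7.85 without it in U2-OS, and at 9.50 with OGE and 9.30 without it in HOS. SLC39A3, a related importer of the plasma membrane, was at 6.04 with OGE and 5.64 without it in U2-OS, and at 6.09 with OGE and 5.64 without it in HOS. SLC39A4, the importer of the intestine that is mutated in acrodermatitis enteropathica, was at 5.44 with OGE and 5.28 without it in U2-OS, and at 5.55 with OGE and 5.27 without it in HOS. None of these changes, which lay between 0.16 and 0.45, reached the threshold. SLC39A13, a zinc transporter of the secretory pathway that is mutated in a form of Ehlers-Danlos syndrome, had values from 6.37 to 6.47 over the 4 arrays, the narrowest range of the 28 genes at the floor.

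SLC39A14, which also carries iron and manganese, was at 7.49 with OGE and 7.12 without it in U2-OS, and at 7.54 with OGE and 7.74 without it in HOS. SLC39A9, a transporter of the Golgi, was at 7.59 with OGE and 7.87 without it in U2-OS, and at 7.00 with OGE and 6.77 without it in HOS. These genes had changes of opposite sign in the lines, by 0.37 or less. SLC39A7, which releases zinc from the endoplasmic reticulum, had changes of -0.07 and -0.19, SLC39A8, a carrier of zinc, manganese and cadmium, of -0.11 and -0.01, and SLC39A11 of -0.32 and -0.34 in U2-OS and HOS.

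**Figure D3:**
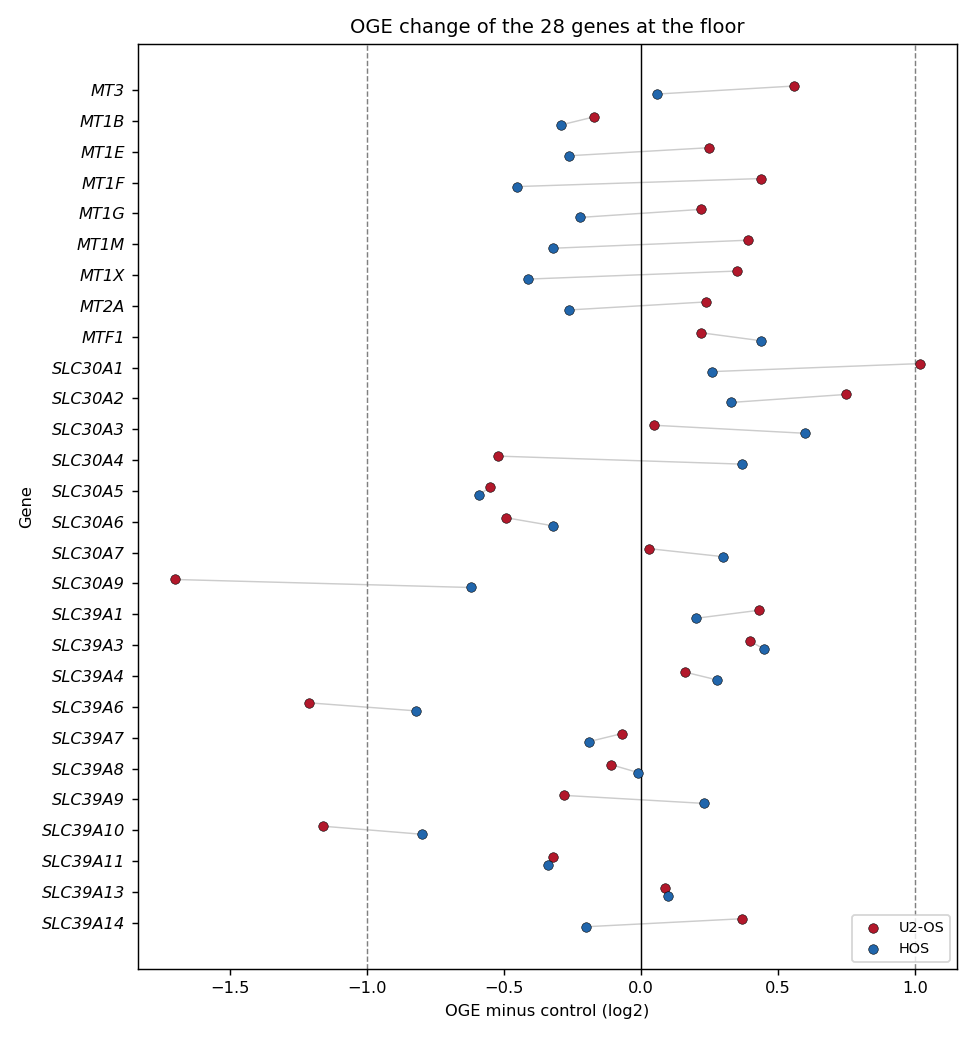
OGE minus control (log2) of 28 members, those at the floor, with U2-OS in red and HOS in blue, with dashed lines at the size threshold of 1 in either direction. SLC30A1 lies past it on the higher side and SLC30A9, SLC39A6 and SLC39A10 on the lower side, all in U2-OS, and 6 metallothioneins have a red point right of 0 and a blue point left of 0.

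By size, 1 of 28 members at the floor was higher in U2-OS, against 2.94% of 11506 genes, and 3 of 28 were lower, against 7.88%. In HOS 0 of 26 were higher, against 1.7% of 11334 genes, and 0 of 26 were lower, against 2.18%. These shares are close to the background. In both lines at once, 0 of 26 were higher, against 0.768% of 10811 genes, and 0 were lower, against 1.09%. By sign alone, 9 of 26 members were higher in both lines, against 34.2% of genes, and 8 were lower in both, against 32.0%. SLC30A4 and SLC39A9, 2 of 26, were lower in U2-OS and higher in HOS, against 17.2%. The SLC30A genes at the floor had a median change of -0.23 in U2-OS and 0.28 in HOS, and the SLC39A genes of -0.07 and -0.01.

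Over both lines, limma called 0 of the 34 members for OGE and 0.0% of all 18417 genes at an adjusted p of 0.05. The model held cell line and OGE, took the lines as repeats and left 1 residual degree of freedom before moderation. At an unadjusted p under 0.05 limma had 5 members (SLC30A2, SLC30A5, SLC30A9, SLC39A6 and SLC39A10), against 14.2% of all genes. SLC39A10 had a mean change of -0.98 ± 0.25 (SD, n = 2 lines), with a limma p of 0.00455 and an adjusted p of 0.228. SLC30A9 had a mean change of -1.16 ± 0.76, with an adjusted limma p of 0.259, and SLC30A1 of 0.64 ± 0.54, with an adjusted limma p of 0.358. Whether the arrays represent separate cultures is not stated in the labels. The spread behind these p-values is the difference in OGE change between the lines, moderated over all genes. A response that differs between the lines counts as error there, and technical spread cannot be told apart from it.

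For all 7 metallothioneins at the floor in both lines, the OGE change was larger in U2-OS than in HOS, against 45.5% of 10811 genes. The difference was at least 0.5 for 6 of the 7, against 11.4% of genes, a limit chosen after the values were seen. The difference was 0.89 for MT1F, 0.76 for MT1X, 0.71 for MT1M and 0.50 for MT2A. The other MT2A probe sets gave 1.15 and 0.70, so the order of these genes depends on the probe set. A higher value in U2-OS together with a lower one in HOS was found for MT1E, MT1F, MT1G, MT1M, MT1X and MT2A, 6 of 7, against 14.6% of genes. SLC30A1 had a difference of 0.76, with values higher with OGE in both lines. These differences have no test, since 1 array a group leaves no degree of freedom for one. The 2 SLC39A genes called lower differed little between the lines, with -0.36 for SLC39A10 and -0.39 for SLC39A6, while SLC30A9 differed by -1.08.

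**Figure D4:**
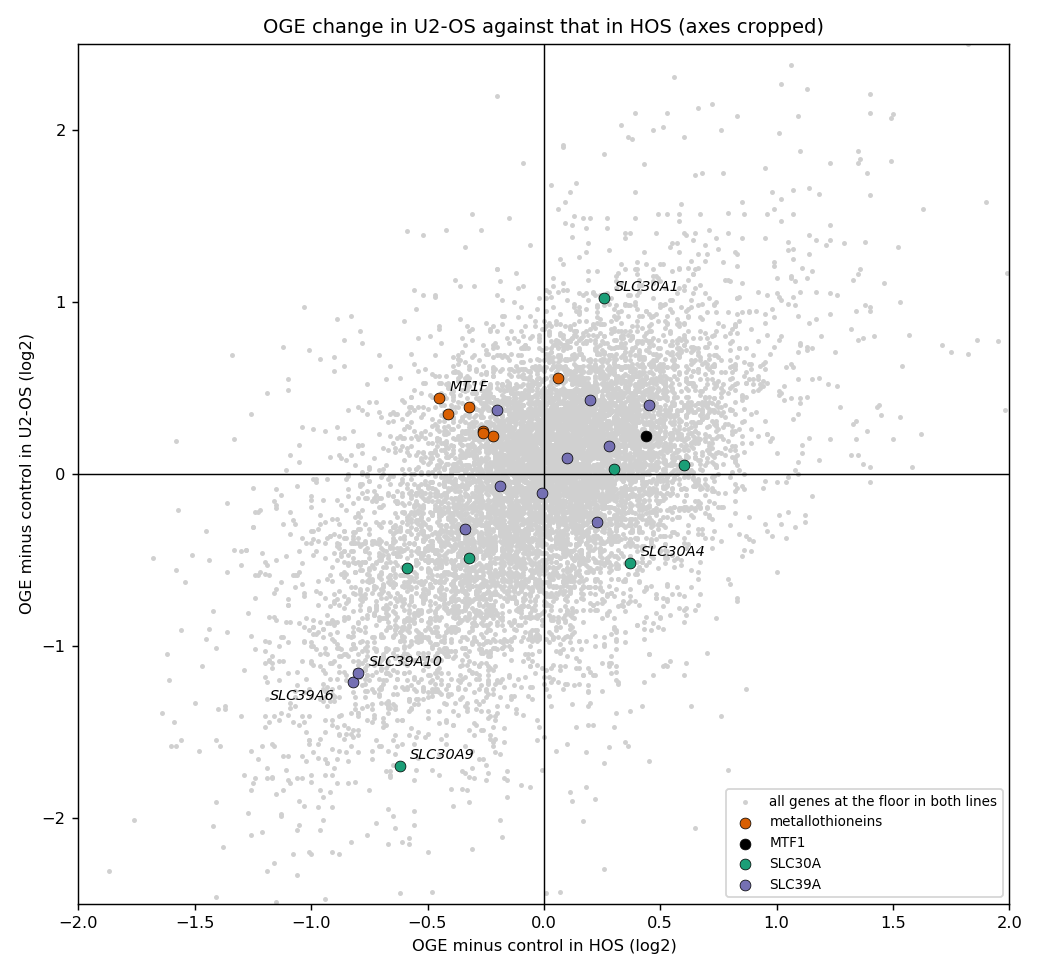
OGE minus control (log2) in U2-OS on the vertical axis against that in HOS on the horizontal axis, for 10811 genes that reached the floor in each line (grey, 45 of them outside the axes) and the members by family. Of the 7 metallothioneins shown, 6 lie in the upper left and MT3 right of 0, while MT1B and MT1H are not shown because they were under the floor in HOS or on all arrays, SLC30A1 lies above 1 on the vertical axis, and SLC39A6, SLC39A10 and SLC30A9 lie in the lower left.

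Gene span, examined after the values were seen, moved with the OGE change. Among genes at the floor, the 3005 with the shortest RefSeq spans had a median change of 0.18 in U2-OS and 0.11 in HOS, and the 3005 with the longest spans of -0.26 and -0.11. Metallothionein genes span 914 to 1727 bases. The 553 genes at the floor that span no more than 1727 bases had medians of 0.28 in U2-OS, close to the metallothionein median of 0.30, and 0.10 in HOS, where the metallothionein median was -0.275. The 3 members called lower in U2-OS span from 20810 bases (SLC39A6) to 124672 bases (SLC39A10). The part of gene span in these results was not tested. The 3 epithelial markers at the floor went both ways. The OGE change in U2-OS minus that in HOS was 0.88 for EPCAM, 0.66 for KRT14 and -0.50 for KRT19, with a median of 0.66, against 0.505 for the metallothioneins. EPCAM had changes of 0.04 in U2-OS and -0.84 in HOS, KRT14 of 0.68 and 0.02, and KRT19 of -0.24 and 0.26. Both EPCAM values in U2-OS, 3.54 with OGE and 3.50 without it, were under the array median. Its difference, and the median that includes it, thus rest in part on a pair under the floor. The part of these markers in the results was not tested.

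Between the lines, U2-OS had higher values of MT2A, MT1X and MT1B than HOS with and without OGE, and of the importer SLC39A11, while SLC39A1 was lower in U2-OS. MT2A differed by 1.98 with OGE and 1.48 without it, and both U2-OS arrays, at 11.54 and 11.30, stood above both HOS arrays, at 9.56 and 9.82. The mean difference was 1.73 ± 0.35 (SD, n = 2 states), with an adjusted limma p of 0.0434. For all differences between the lines, the SD and the limma model take the 2 treatment states as repeats. Neither line had a replicate array within a state, so a small SD is not replicate precision. The other 2 MT2A probe sets differed by 2.09 and 1.87 with OGE and by 0.94 and 1.17 without it. The difference of 0.94 was under the size threshold, so the size call of MT2A depends on the probe set. With the mean of its probe sets, MT2A did not pass limma.

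MT1X differed by 1.94 with OGE and 1.18 without it, with an adjusted limma p of 0.0633. MT1B differed by 1.27 and 1.15, with an adjusted limma p of 0.0546, and its HOS values of 3.11 and 3.40 were under the array median. MT1B was no longer called when the floor was set at the 75th percentile. MT1X and MT1B were called by size and missed the limma threshold. MT1G differed by 1.19 with OGE and 0.75 without it, and MT1E by 0.77 and 0.26. MT1F and MT1M went the other way. MT1F differed by -0.18 with OGE and -1.07 without it, and MT1M by -0.54 and -1.25, with both U2-OS arrays below both HOS arrays in each gene. The metallothioneins thus did not share 1 direction between the lines: 5 of 8 at the floor had both U2-OS arrays above both HOS arrays, against 22.5% of 11069 genes, and 2 had them below, against 25.1%. MT3, the remaining gene, overlapped, with differences of 0.29 and -0.21.

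SLC39A11 was at 5.80 and 6.12 in U2-OS with and without OGE, against 4.24 and 4.58 in HOS. The difference was 1.56 with OGE and 1.54 without it, a mean of 1.55 ± 0.01 (SD, n = 2 states) with an adjusted limma p of 0.0417. SLC39A1 was at 8.28 and 7.85 in U2-OS with and without OGE, against 9.50 and 9.30 in HOS. Its difference was -1.22 with OGE and -1.45 without it, and its adjusted limma p of 0.0502 fell just short of the threshold. SLC39A9 was higher in U2-OS by 0.59 with OGE and 1.10 without it, and SLC39A7 had differences of -0.52 and -0.64. SLC39A3, SLC39A4 and SLC39A13 differed by at most 0.11 in either state.

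No SLC30A gene was called between the lines in both states. SLC30A1 differed by 1.05 with OGE and 0.29 without it, and SLC30A9 by -0.78 with OGE and 0.30 without it. For SLC30A9 the order of the lines was thus not the same in the 2 states. SLC30A3 differed by 0.26 and 0.81 and SLC30A7 by 0.19 and 0.46, while SLC30A5 differed by 0.00 and -0.04. MTF1 differed by 0.06 with OGE and 0.28 without it.

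By size in both states, 4 of 27 members at the floor were higher in U2-OS, against 3.0% of 11069 genes, and 1 was lower, against 3.17%. Of the 4 higher, 3 were metallothioneins (MT1B, MT1X and MT2A), related copies that do not count as independent genes. With limma, 2 of 34 members were higher, against 0.885% of 18417 genes, and 0 were lower, against 1.04%, so 2 members were called in all, against 1.92%. At an unadjusted p under 0.05 limma had 12 members, against 20.7% of all genes. The family medians at the floor were 0.98 with OGE and 0.505 without it for metallothioneins, 0.10 and 0.31 for SLC30A genes and -0.01 and 0.01 for SLC39A genes, against -0.02 and -0.01 over all genes at the floor.

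**Figure D5:**
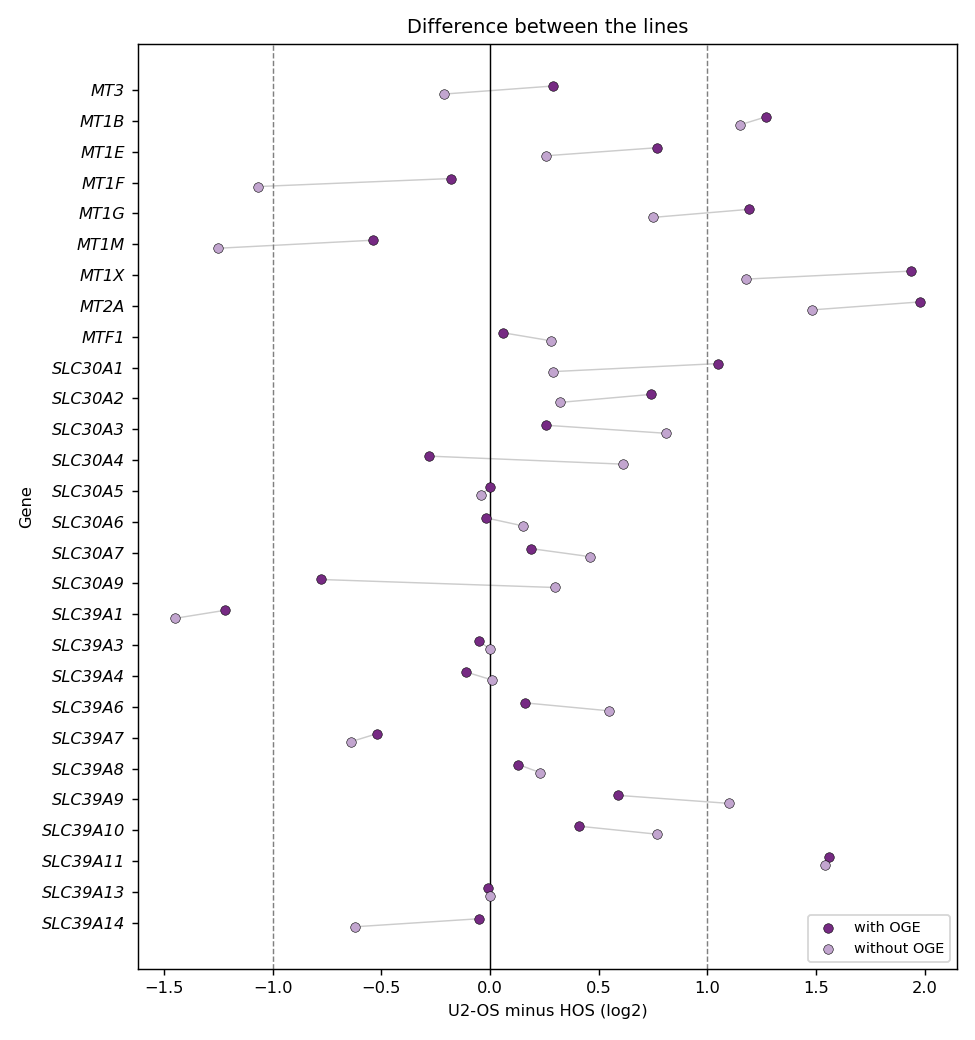
U2-OS minus HOS (log2) of the 28 genes at the floor, with OGE (dark) and without it (light), with dashed lines at the size threshold of 1 in either direction. MT1B, MT1X, MT2A and SLC39A11 lie right of 1 in both states and SLC39A1 left of -1 in both, while MT1F and MT1M lie left of 0.

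Other genes that handle metals were set beside the members. Their lists were chosen with earlier results of these data known, so the counts are descriptions and not tests. Of 13 measured genes known to respond to cadmium or arsenite, 8 were higher by size with OGE in U2-OS, against 2.94% of genes, and 8 in HOS, against 1.7%, with none lower. Their median change was 1.21 in U2-OS and 1.38 in HOS, whereas no metallothionein was called in either line. HMOX1, the heme oxygenase, was at 9.37 with OGE and 5.18 without it in U2-OS, and at 6.14 with OGE and 5.00 without it in HOS. ZFAND2A, an arsenite-inducible gene, was higher by 2.55 in U2-OS and 1.81 in HOS, and HSPB8, a small heat shock protein, by 1.97 and 2.05. The inducible heat shock protein HSPA6 had a change of 3.30 in U2-OS, at 6.80 with OGE and 3.50 without it. In HOS its values of 3.28 with OGE and 3.56 without it were both under the array median. Its change of -0.28 there is thus no usable comparison. limma called 0 of these genes for OGE.

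Of 11 measured copper-handling genes 10 were at the floor, and 0 of them were called by size with OGE in either line, against 2.94% of genes higher and 7.88% lower in U2-OS and 1.7% and 2.18% in HOS. SOD1, the copper and zinc superoxide dismutase, had changes of -0.85 in U2-OS and -0.36 in HOS, the copper chaperones SCO2 and SCO1 of 0.50 and -0.06 in U2-OS and of 0.69 and -0.78 in HOS, and the copper pump ATP7A of -0.58 and -0.09. Among 4 other reported targets of MTF1 in mouse or human, SLC40A1, the iron exporter, was lower by size in U2-OS with -1.25, against -0.48 in HOS. PGF, a placental growth factor, was higher by size in HOS with 1.15, against -0.13 in U2-OS. GCLC, a subunit of the enzyme of glutathione synthesis, had changes of 0.12 and 0.65, and SELENOH of -0.28 and 0.31. Of 11 genes of other divalent metal transport 7 were at the floor, and 0 of them were called by size in either line, with the magnesium transporter genes CNNM2 at 0.99 and 0.73 and SLC41A1 at 0.31 and 0.86, the transferrin receptor TFRC at -0.21 and -0.85 and CNNM4 at 0.49 and 0.55 in U2-OS and HOS.

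The 6 members under the floor on all arrays were MT1H, SLC30A8, SLC30A10, SLC39A2, SLC39A5 and SLC39A12. Their values lay between 1.33 and 3.27, and their changes with OGE between -0.06 and 0.40 in U2-OS and between -0.43 and 0.41 in HOS. SLC30A8 is known for the insulin granules of pancreatic beta cells and SLC30A10 as an exporter of manganese. At these levels the arrays give no usable comparison.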

How the data were processed

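The authors deposited log2 values with 2 decimals, computed with RMA (version not stated) per the submitters' processing notes. The base of the log was inferred from the values, which no header states. Per the labels' protocols, total RNA was labelled with biotin by a whole-transcript method. Of 33297 probe sets, 19460 have 1 gene symbol in the platform annotation and were used, 1754 have several and 12083 none. Symbols were updated by gene ID through RefSeq (GRCh38.p14) for 19429 of them, giving 18417 genes. The probe set of highest mean stood for each of the 769 genes that have several. The 3 probe sets of SLC39A7 hold identical values.

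limma 3.58.1 in R 4.3.3 was fitted to all genes with cell line and OGE as terms, with Benjamini-Hochberg adjustment at 0.05, after a test on simulated data. Members and gene lists were chosen with earlier results of these data known. All members are named; of the other lists, up to 4 at the floor with the largest mean absolute change, and osteoblast markers under the floor. Alternatives were other size thresholds and floors, 2 further normalizations, the mean of probe sets and other limma settings. RMA assumes that most genes do not shift and understates changes of low genes. The build used for probe set design was not given in the sources used here.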

Additional observations from a re-analysis of the deposited data

Results flagged for a closer look

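OGE changes of opposite sign in the lines were found for 9 of 26 members at the floor in each line. Of the 26, 7 were higher in U2-OS and lower in HOS, a larger share than the 14.6% of 10811 genes. Of these 7, 6 were metallothioneins, related copies that do not count as independent genes. The other 2 were lower in U2-OS and higher in HOS, a smaller share than the 17.2% of genes. With 1 array a group, the difference between the lines was not tested. The U2-OS change minus the HOS change was 0.51 for MT1E, 0.89 for MT1F, 0.44 for MT1G, 0.71 for MT1M, 0.76 for MT1X, 0.50 for MT2A and 0.57 for SLC39A14. It was -0.89 for SLC30A4 and -0.51 for SLC39A9. All 9 kept opposite signs after quantile normalization and after cyclic loess. With the mean of probe sets only MT2A could change, since the others have a single probe set, and it kept opposite signs.

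Of 7 related probe sets outside the symbol rule, 5 had a value above the control in U2-OS and 1 in HOS. Of 12029 genes at the floor, 5913 were above the control in U2-OS and 6191 in HOS. As related copies, these probe sets do not count as independent of the metallothioneins. In U2-OS the OGE change was 0.22 for MT1HL1, 0.69 for MT1JP, 0.11 for MT1DP, 0.48 for MT1IP and 0.12 for MT1P3. In HOS it was 0.11 for MT1IP, and MT1HL1, MT1JP, MT1DP and MT1P3 had -0.53, -0.19, -0.83 and -0.10. The other 2 were below the control in both lines, with -0.16 in U2-OS and -0.04 in HOS for MT4 and -0.23 and -0.78 for the probe set annotated to both NUTF2 and MT1L. Whether these probe sets detect the pseudogenes or the coding genes was not tested.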

How the results depend on the processing

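At 1.5-fold, 2 members were higher by size with OGE in U2-OS, and in HOS 1 was higher (SLC30A3) and 4 were lower (SLC30A5, SLC30A9, SLC39A6 and SLC39A10). Between the lines, 1.5-fold added MT1G and SLC39A9 to those higher in U2-OS, and a floor at the 75th percentile removed MT1B. At 3-fold, 0 were higher and 1 lower (SLC30A9) in U2-OS, and 0 were higher and 0 lower between the lines. These shifts follow from the threshold. With quantile normalization the metallothionein median in U2-OS was 0.44, and with cyclic loess it was 0.41; its difference between the lines with OGE was 1.09 with quantile normalization; the cause was not tested. For the lines, limma called 6 members with trend and robust moderation and 1 (MT2A) with no replicate block, against 2 as reported. It called 4 of 24 members among the 9209 genes at or above the median mean, and 7 after quantile normalization or cyclic loess. Over the genes fitted, these 5 alternatives called 1309, 131, 749, 1763 and 1326, against 354. As shares these were 7.11%, 0.711%, 8.13%, 9.57% and 7.2%, against 1.92%. The cause was not tested. With the mean of probe sets limma called 2, gaining SLC39A1 and losing MT2A. For OGE limma called 0 members under all 6 alternatives, and over all genes 264 after quantile normalization, 1 with trend and robust moderation and 0 in the other 4. MT1F without OGE fell under the threshold between the lines, at -0.99, after either scaling. The other 334 values of single members kept their side of the threshold. Part of this count was fixed in advance, since only 2 members have several probe sets. For the others the mean of probe sets changes nothing, nor does it for SLC39A7, whose probe sets hold identical values. Uncalled values of at most 0.05 in size changed sign under quantile normalization or cyclic loess for SLC30A3, SLC30A6, SLC39A3, SLC39A4, SLC39A13 and SLC39A14. Another 76 counts and medians stayed within the tolerance (1.5 times for a count), which does not show that the genes were the same. The reported limma fit is blocked by the other factor; with no replicate block the smallest adjusted p among members for OGE was 0.761, against 0.228. The labels give no replicate numbers for any other pairing, and leaving out an array would remove a group.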

Other observations

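The probe set annotated to both NUTF2 and MT1L was left out because it has 2 symbols. Its values were 6.96 with OGE and 7.19 without it in U2-OS, and 6.50 with OGE and 7.28 without it in HOS. MT4, the metallothionein of squamous epithelium, lies outside the symbol rule, with 3.74 with OGE and 3.90 without it in U2-OS, and 3.55 with OGE and 3.59 without it in HOS.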
